A study of Mus musculus with 6 samples.

Results

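The TGF-beta and BMP pathway genes were described in RNA-seq of MEFs (mouse embryonic fibroblasts, primary stromal cells cultured out of embryos), WT or *Aff3ir-ORF2-/-*. The set held 51 genes, found by symbol in a table of 17092 genes, and it comprised ligands and latency proteins, secreted antagonists, receptors, Smads, intracellular inhibitors and the Id targets. All 51 were present, and all 51 were among the 13075 genes with enough reads to be tested. The set was chosen by pathway membership with the counts of knockout and WT libraries in view, so the differences between the 2 genotypes are a description and carry no test of their own.

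*Aff3ir-ORF2* is a protein encoded by *Aff3ir*, a gene nested in an intron of *Aff3*, and the study asked how its loss alters gene expression in these cells. The knockout was global and made with Cas9 in fertilized eggs, and homozygous animals came from crosses of heterozygotes. There were 3 libraries of each genotype, and no treatment is given for either in the labels. Neither the labels nor the methods say whether the libraries came from separate embryos or cultures, so the errors measure the spread between these libraries, which may be technical. *Aff3ir* was not analysed here.

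TGF-beta is secreted in a latent complex that is stored in the extracellular matrix or held on the cell surface until it is activated. Active TGF-beta, activins and BMPs assemble type I and type II serine/threonine kinase receptors, which phosphorylate Smad proteins. *Smad2* and *Smad3* carry the signal of TGF-beta and activin, *Smad1*, *Smad5* and *Smad9* that of BMPs, and *Smad4* is the partner of both branches. In fibroblasts the TGF-beta branch is known for matrix synthesis and the contractile myofibroblast state, and the BMP branch for induction of the Id genes.

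The measurement was an estimated read count per gene and library, rounded here to a whole number. Total counts were 17435133 to 17726034 in WT and 18209421 to 18252330 in *Aff3ir-ORF2-/-* libraries. Levels were expressed as CPM, counts scaled to a common library size by TMM. On this scale the pathway genes took 0.711% to 0.720% of the scaled library size in WT and 0.776% to 0.793% in knockout libraries. Fibroblast markers were abundant in all 6 libraries, with a summed level of 31012 to 31123 CPM in WT and 26115 to 32880 CPM in knockout libraries. Macrophage markers moved with genotype. Their summed level was 25.04 to 28.20 CPM in WT and 1442, 1992 and 2457 CPM in knockout replicates 1, 2 and 3, and all 19 listed genes in the table, *Lyz2*, *Mpeg1* and *Ctss* among them, were called higher, while *C1qa* and *C1qb* had 0 counts in every WT library. The smooth muscle list was also higher, with 4284 to 4384 CPM in WT and 7160 to 7851 CPM in the knockout. The mesothelial list was higher at lower levels, with 6.46 to 8.41 and 29.6 to 35.7 CPM and 3 of 4 genes called higher. The skeletal muscle list had 75.3 to 77.4 and 208 to 326 CPM, nearly all of it *Acta1*, its 1 tested gene. *Myf5*, *Pax7* and *Myh3* had 0 to 3 counts per library, so this sum describes *Acta1* and not skeletal muscle markers as a group. The neural list had 154 to 160 and 177 to 227 CPM, with 3 of 5 tested genes called higher and 1 lower. The cartilage and bone list was lower, with 70.7 to 72.4 and 49.4 to 67.05 CPM. Of it *Sox9* and *Acan* were called lower and *Col2a1* higher. The part of these cells or genes in the values below was not tested. In RNA from whole cultures a change in the number of cells of a type and a change in RNA per cell cannot be told apart.

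A gene was called when the edgeR quasi-likelihood test over all genes gave an adjusted p under 0.05 and the fold change was at least 1.5. By this rule 11 pathway genes were higher in *Aff3ir-ORF2-/-* MEFs, where 14.2% of all tested genes were, and 1 was lower, where 7.27% of all tested genes were. In either direction 12 of 51 were called, beside 21.4% of all tested genes. Those higher were *Tgfb2*, *Ltbp2*, *Lrrc32*, *Bmp4*, *Gdf6*, *Gdf10*, *Inhbb*, *Grem1*, *Chrd*, *Nbl1* and *Eng*, and the one lower was *Ltbp4*. All but *Eng* encode secreted proteins or, for *Lrrc32*, a surface protein that holds the ligand. No Smad, intracellular inhibitor or Id gene was called. Of these, *Id1* (log2 fold change -0.71) and *Smad6* (0.62) were past 1.5-fold but not past the threshold on the adjusted p. Their knockout libraries spread widely, with SDs of log2 CPM of 0.81 and 0.51. The median log2 fold change of the 51 genes was 0.08, beside 0.01 for all tested genes. An adjusted p under 0.05 at any fold was reached by 24 of the 51, beside 56.8% of all tested genes. The knockout and WT libraries did not overlap for 31 of the 51, beside 66.0% of all tested genes.

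**Figure D1:**
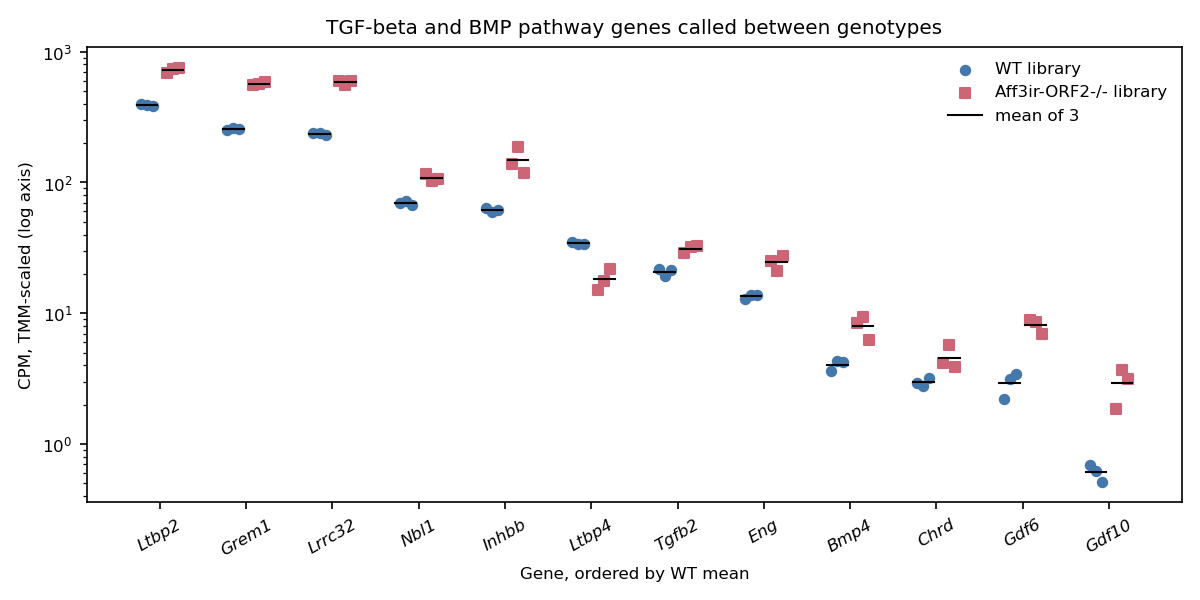
Level of the 12 called pathway genes in each library, in TMM-scaled CPM on a log axis, with genes ordered by WT mean. Circles are WT libraries, squares are *Aff3ir-ORF2-/-* libraries and lines are means of 3. *Ltbp4* is the gene whose knockout libraries all lie below WT, and the spread of the knockout libraries is widest for *Gdf10*, from 1.866 to 3.702 CPM.

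Near the limit of 1.5-fold, *Tgfb2* was just inside, with a log2 fold change of 0.5853. *Id4* and *Inhba* were just outside, with log2 fold changes of -0.5829 and -0.5697, and neither was past the threshold on the adjusted p. *Smad6*, *Bmp2*, *Id1* and *Nog* were past 1.5-fold but not past the threshold on the adjusted p, and *Twsg1*, at 1.41-fold, was under the fold limit.

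**Figure D2:**
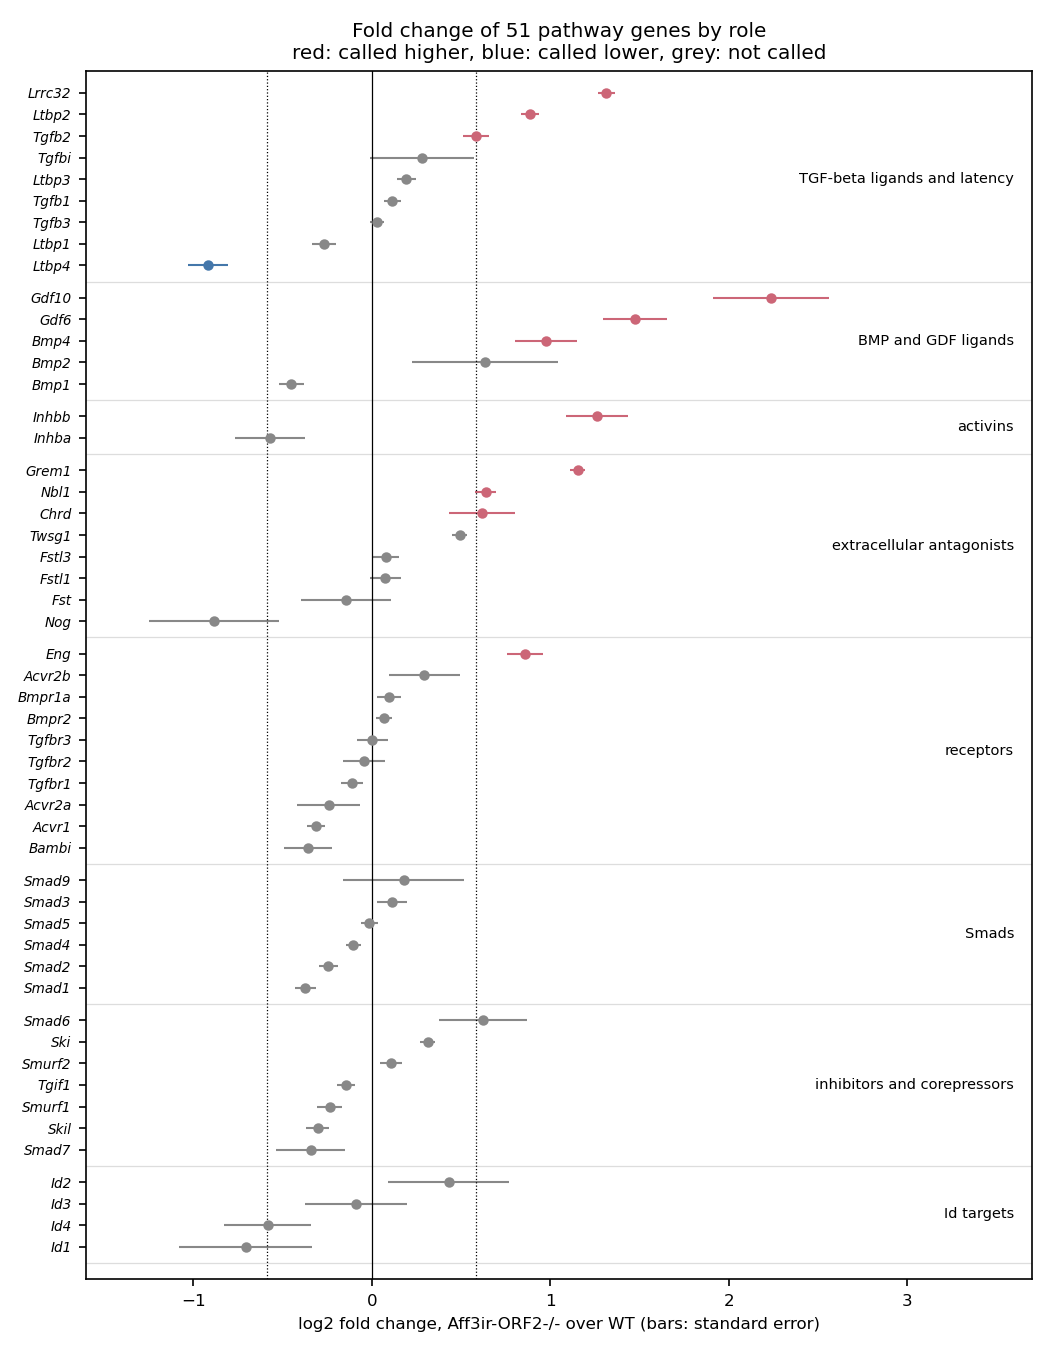
Log2 fold change of the 51 pathway genes, *Aff3ir-ORF2-/-* over WT, by role, with bars of 1 standard error and dotted lines at 1.5-fold. The called genes lie in the ligand, latency, activin, antagonist and receptor groups, with *Gdf10* at 2.24 and *Ltbp4* at -0.92 at the extremes.

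Of the 9 genes for TGF-beta ligands and latency, 3 rose and 1 fell, beside 14.2% and 7.27% of all tested genes. *Tgfb3* was the main ligand transcript in WT cells, with 64.8 CPM per kb of transcript, ahead of *Tgfb1* with 27.5 and *Tgfb2* with 4.07. *Tgfb1* had 1232, 1249 and 1220 counts in WT and 1335, 1478 and 1422 in knockout libraries, a log2 fold change of 0.12 ± 0.05 (SE, n = 3 per genotype), which was not called. *Tgfb3* had 3725, 3824 and 3927 counts in WT and 4048, 4125 and 4199 in knockout libraries, with a log2 fold change of 0.03 ± 0.04. Both had slightly higher raw counts in the knockout, where library totals were also larger, and after scaling the libraries of the genotypes overlapped for *Tgfb3* and not for *Tgfb1*.

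*Tgfb2*, the ligand known for roles in the heart and neural crest, had 373, 340 and 377 counts in WT and 529, 595 and 603 in knockout libraries. Its level rose from 20.8 ± 1.31 to 31.3 ± 1.99 CPM (mean ± SD, n = 3), a log2 fold change of 0.59 ± 0.07. Every knockout library was above every WT library, but since the value lay at the fold limit, the call was lost with DESeq2 size factors (0.58) and without knockout replicate 2 (0.57), among other settings. The share of *Tgfb2* among the 3 ligand transcripts, on the per-length scale, was 4.22 ± 0.24% in WT and 5.98 ± 0.26% in the knockout, that of *Tgfb1* 28.5 ± 0.67% and 29.2 ± 0.81%, and that of *Tgfb3* 67.2 ± 0.66% and 64.9 ± 0.98%. *Tgfb3* thus remained the most abundant of the 3 in each genotype.

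The latent TGF-beta binding proteins went in different directions. *Ltbp2*, a matrix protein of this family that does not itself bind latent TGF-beta, had 6854, 6916 and 6746 counts in WT and 12468, 13774 and 13842 in knockout libraries. It rose from 392 ± 5.76 to 726 ± 36.7 CPM, a log2 fold change of 0.89 ± 0.05. Its WT libraries lay within a narrow band that the knockout libraries cleared by a wide margin.

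*Ltbp4*, which binds latent TGF-beta and takes part in elastic fibre assembly, had 604, 600 and 589 counts in WT and 276, 328 and 399 in knockout libraries. It fell from 34.3 ± 0.67 to 18.2 ± 3.33 CPM, a log2 fold change of -0.92 ± 0.11, and it was the only pathway gene called lower. The knockout libraries spread more than the WT libraries, with replicate 3 the nearest to WT. On the per-length scale *Ltbp2* exceeded *Ltbp4* by 9.10 ± 0.07 times in WT and 32.3 ± 4.28 times in the knockout.

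*Ltbp1* and *Ltbp3*, both carriers of latent TGF-beta, differed less between genotypes. *Ltbp1* had 8067, 8202 and 8493 counts in WT and 7391, 6496 and 7817 in knockout libraries, a log2 fold change of -0.27 ± 0.07. *Ltbp3* had a log2 fold change of 0.19 ± 0.05. Neither reached 1.5-fold, although the genotypes did not overlap for either gene.

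*Lrrc32* encodes GARP, which tethers latent TGF-beta to the surface of regulatory T cells, platelets and some stromal cells. It had 4096, 4180 and 4028 counts in WT and 10917, 10452 and 10944 in knockout libraries. It rose from 235 ± 4.10 to 585 ± 21.4 CPM, a log2 fold change of 1.32 ± 0.05. The 3 knockout libraries lay close together and well above WT. The macrophage markers were also higher in the knockout, and their part in the *Lrrc32* value was not tested. On the per-length scale *Lrrc32* moved from the 9th most abundant of the 51 genes in WT to the 3rd in the knockout.

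*Tgfbi*, a secreted matrix protein named for its induction by TGF-beta, had 879, 951 and 999 counts in WT and 729, 1662 and 1247 in knockout libraries. Its log2 fold change was 0.28 ± 0.29 and fell to -0.01 without knockout replicate 2. Replicate 1 was below and replicates 2 and 3 were above all WT libraries, so that no shift between genotypes could be read at this spread.

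The 5 genes grouped as BMP and GDF ligands had 3 called, all higher, beside 14.2% of all tested genes called higher. Those 3 were genes of low level. *Bmp4*, a ligand of mesoderm and limb development, had 62, 76 and 74 counts in WT and 153, 174 and 114 in knockout libraries. It rose from 4.05 ± 0.40 to 7.98 ± 1.60 CPM, a log2 fold change of 0.98 ± 0.17. The lowest knockout library was still above the highest WT library.

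*Gdf6*, a BMP family ligand of joint and skeletal patterning, had 38, 55 and 60 counts in WT and 162, 159 and 128 in knockout libraries. It rose from 2.92 ± 0.64 to 8.13 ± 1.02 CPM, with a log2 fold change of 1.47 ± 0.18. *Gdf10*, also called BMP3B, had 12, 11 and 9 counts in WT and 34, 69 and 58 in knockout libraries, which is 0.612 ± 0.09 and 2.91 ± 0.94 CPM and a log2 fold change of 2.24 ± 0.32. The latter was the largest fold among the 51 genes and, of the 12 called, the one on the fewest reads. *Gdf10* had the lowest level per length of all 51 in WT, 0.117 CPM per kb.

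*Bmp2*, a ligand of bone and limb development, had only 7, 11 and 19 counts in WT and 14, 29 and 18 in knockout libraries. Its log2 fold change of 0.64 ± 0.41 was not called, and the genotypes overlapped. *Bmp1* is a metalloprotease that cleaves procollagens and the BMP antagonist chordin rather than a BMP-like ligand. It had 6022, 6168 and 5988 counts in WT and 4687, 5209 and 4153 in knockout libraries, a log2 fold change of -0.45 ± 0.07, so that all knockout libraries were lower but the change stayed under 1.5-fold.

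The activin beta subunits differed in sign. *Inhba*, the subunit of activin A, had 18393, 19493 and 20303 counts in WT and 16161, 9897 and 15237 in knockout libraries. Its log2 fold change of -0.57 ± 0.20 was not called. All knockout libraries lay below WT, with replicate 2 far below the other two, and without that replicate the log2 fold change was -0.38.

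*Inhbb*, the subunit of activin B, had 1103, 1055 and 1072 counts in WT and 2544, 3488 and 2158 in knockout libraries. It rose from 61.8 ± 2.01 to 148 ± 35.6 CPM, a log2 fold change of 1.26 ± 0.18, and 1.05 without knockout replicate 2, where it was highest. The ratio of *Inhbb* to *Inhba* per length was 0.0901, 0.0813 and 0.0793 in WT and 0.236, 0.529 and 0.213 in knockout libraries. *Inhba* thus remained the more abundant subunit in each of the 6 libraries.

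Among 8 secreted antagonists and ligand-binding proteins, 3 rose and none fell, beside 14.2% and 7.27% of all tested genes. *Grem1*, gremlin, which binds and blocks BMPs, had 4348, 4549 and 4481 counts in WT and 10218, 10498 and 10712 in knockout libraries. It rose from 256 ± 3.34 to 569 ± 12.5 CPM, a log2 fold change of 1.15 ± 0.04. This was the smallest standard error among the 12 called genes, and on the per-length scale *Grem1* moved from the 7th to the 2nd most abundant of the 51.

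*Nbl1*, also called DAN, an antagonist of the same structural family, had 1206, 1271 and 1169 counts in WT and 2127, 1917 and 1948 in knockout libraries. It rose from 69.7 ± 2.70 to 109 ± 7.27 CPM, a log2 fold change of 0.64 ± 0.06, and its call was lost without knockout replicate 1, at 0.58. *Chrd*, chordin, had 51, 49 and 56 counts in WT and 76, 106 and 71 in knockout libraries, 2.98 ± 0.21 and 4.57 ± 0.97 CPM, with a log2 fold change of 0.62 ± 0.19. *Chrd* overlaps *Thpo* on the reference, and its call was lost without WT replicate 1 (0.61), WT replicate 2 (0.57) or knockout replicate 2 (0.43).

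*Twsg1*, which binds both chordin and BMPs, had 1725, 1824 and 1814 counts in WT and 2566, 2792 and 2604 in knockout libraries. Its log2 fold change of 0.49 ± 0.04 was under the fold limit, although the libraries of the genotypes were well separated. *Nog*, noggin, had 22, 24 and 12 counts in WT and 8, 11 and 14 in knockout libraries, a log2 fold change of -0.88 ± 0.36. At these counts the genotypes overlapped and no difference was called.

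Follistatin and the follistatin-like genes showed no common shift. *Fst*, follistatin, had 1738, 1751 and 1780 counts in WT and 1744, 1100 and 2180 in knockout libraries, a log2 fold change of -0.14 ± 0.25 that was 0.09 without replicate 2. *Fstl3*, a follistatin relative, had a log2 fold change of 0.08 ± 0.07. *Fstl1*, a secreted glycoprotein of mesenchymal cells, had 22553, 23192 and 22528 counts in WT and 22815, 29610 and 23651 in knockout libraries and a log2 fold change of 0.08 ± 0.08. *Fstl1* was the most abundant of the 51 genes per length in each genotype, at 344 ± 3.96 CPM per kb in WT and 363 ± 48.7 in the knockout.

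**Figure D3:**
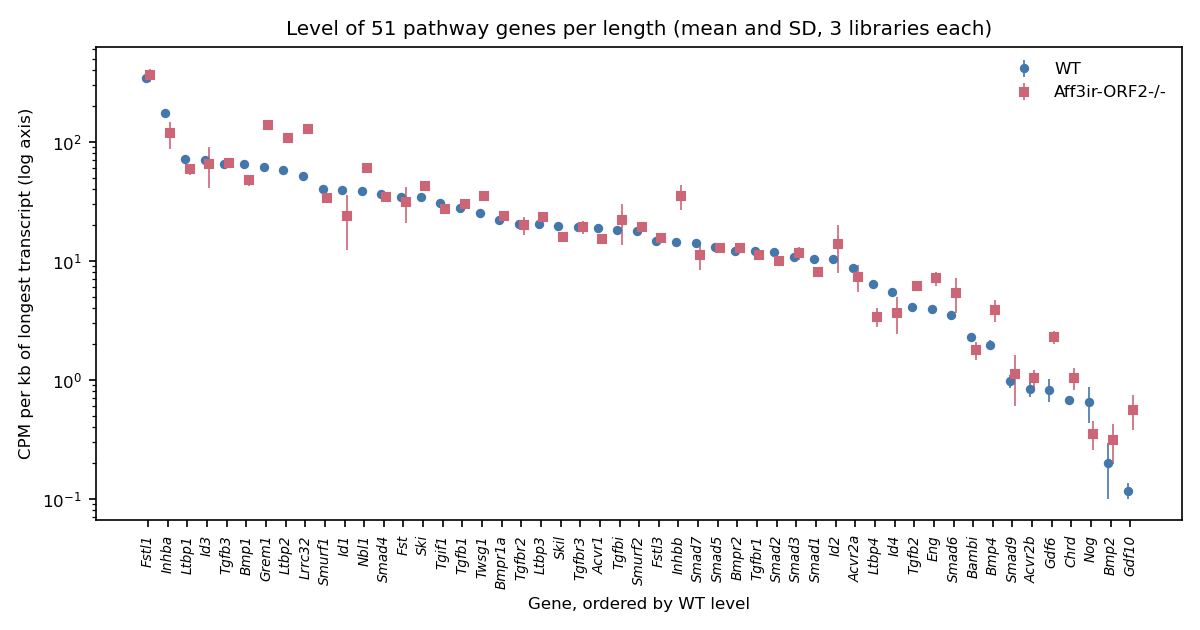
Level of the 51 pathway genes in TMM-scaled CPM per kb of the longest annotated transcript, on a log axis, with genes ordered by WT level and bars of 1 SD over 3 libraries. Levels run from 344 for *Fstl1* to 0.117 for *Gdf10* in WT, and *Grem1*, *Ltbp2*, *Lrrc32* and *Inhbb* stand above their WT values in the knockout.

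Of the 10 receptors and coreceptors, 1 was called, beside 21.4% of all tested genes. *Eng*, endoglin, a coreceptor of TGF-beta and BMP ligands known from endothelium and also found on mesenchymal cells, had 222, 241 and 242 counts in WT and 458, 389 and 502 in knockout libraries. It rose from 13.5 ± 0.53 to 24.4 ± 3.29 CPM, a log2 fold change of 0.86 ± 0.10. *Eng* overlaps *Fpgs* on the reference. The endothelial list, without *Eng*, summed to 11.6 to 12.2 CPM in WT and 19.3 to 24.2 CPM in knockout libraries, with *Vwf*, *Kdr* and *Erg* called higher and *Cdh5* called lower, and its part in the value of *Eng* was not tested.

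No signalling receptor of TGF-beta was called. *Tgfbr1*, the type I receptor, had 1156, 1179 and 1278 counts in WT and 1082, 1213 and 1239 in knockout libraries, a log2 fold change of -0.11 ± 0.06. *Tgfbr2*, the type II receptor, had 2849, 2922 and 2900 counts in WT and 2563, 3618 and 2719 in knockout libraries, a log2 fold change of -0.04 ± 0.12. For *Tgfbr3*, betaglycan, a coreceptor, the log2 fold change was 0.00 ± 0.09. The libraries of the genotypes overlapped for all 3, but for *Tgfbr2* knockout replicates 1 and 3 lay below and replicate 2 above every WT library, and without replicate 2 its log2 fold change was -0.20.

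Of the BMP receptors, *Bmpr2*, the type II receptor, had 2681, 2752 and 2740 counts in WT and 2977, 3204 and 2881 in knockout libraries, a log2 fold change of 0.07 ± 0.05. *Bmpr1a*, a type I receptor, had a log2 fold change of 0.10 ± 0.07. *Acvr1*, a type I receptor also called ALK2, was lower in all 3 knockout libraries at -0.31 ± 0.05, under the fold limit. The activin type II receptors *Acvr2a* and *Acvr2b* had -0.24 ± 0.18 and 0.30 ± 0.20, and *Bambi*, a pseudoreceptor without a kinase domain, had -0.36 ± 0.13, all uncalled.

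None of the 6 Smads was called, beside 21.4% of all tested genes. *Smad2* had 1635, 1657 and 1693 counts in WT and 1569, 1426 and 1449 in knockout libraries, a log2 fold change of -0.24 ± 0.05. *Smad3* had 959, 963 and 919 counts in WT and 1148, 939 and 1151 in knockout libraries, a log2 fold change of 0.11 ± 0.08. *Smad4* had 2147, 2156 and 2172 counts in WT and 2118, 2201 and 2040 in knockout libraries, a log2 fold change of -0.10 ± 0.04. *Smad2* was lower in every knockout library and *Smad3* overlapped, so that the share of *Smad2* in the pair, per length, was 52.5 ± 1.05% in WT and 46.4 ± 2.34% in the knockout.

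Among the BMP Smads, *Smad1* was lower in every knockout library, with a log2 fold change of -0.37 ± 0.06 that stayed under the fold limit. *Smad5* had 1398, 1551 and 1524 counts in WT and 1552, 1579 and 1545 in knockout libraries and a log2 fold change of -0.01 ± 0.05, the one pathway gene whose sign turned with upper quartile or total count scaling. *Smad9*, also called Smad8, was the least abundant, with 91, 104 and 80 counts in WT and 117, 57 and 154 in knockout libraries and a log2 fold change of 0.18 ± 0.34. *Smad1* made up 42.6 ± 1.38% of the 3 transcripts per length in WT and 36.4 ± 0.82% in the knockout, and *Smad5* was the largest part in each genotype.

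The 7 intracellular inhibitors and corepressors also had no call, beside 21.4% of all tested genes. *Smad6*, the inhibitory Smad that acts mainly on BMP receptors, had 170, 191 and 183 counts in WT and 339, 188 and 356 in knockout libraries. Its log2 fold change was 0.62 ± 0.24, and without knockout replicate 2 it was 0.87 and past both thresholds. Knockout replicates 1 and 3 were far above WT, whereas replicate 2 lay within the WT range.

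*Smad7*, the inhibitory Smad of the TGF-beta branch, had 1079, 1074 and 1034 counts in WT and 1029, 628 and 994 in knockout libraries, a log2 fold change of -0.34 ± 0.19, and -0.14 without replicate 2. *Smurf1*, a ubiquitin ligase of Smads and receptors, had 3801, 3748 and 3762 counts in WT and 3562, 3017 and 3554 in knockout libraries, a log2 fold change of -0.24 ± 0.07. *Ski*, a Smad corepressor, had 3291, 3360 and 3194 counts in WT and 4250, 4439 and 4218 in knockout libraries, a log2 fold change of 0.31 ± 0.04. *Ski* was higher and its relative *Skil*, at -0.30 ± 0.06, lower in every knockout library, both by less than 1.5-fold, and *Smurf2* and the corepressor *Tgif1* had 0.11 ± 0.06 and -0.14 ± 0.05.

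The Id genes encode inhibitors of basic helix-loop-helix factors and are widely used as readouts of BMP signalling. *Id1* had 812, 823 and 732 counts in WT and 544, 248 and 736 in knockout libraries. *Id2* had 377, 350 and 333 counts in WT and 507, 287 and 712 in knockout libraries. The WT libraries agreed closely and the knockout libraries did not, with replicate 2 lowest and replicate 3 highest for both genes.

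*Id3* had 1516, 1576 and 1564 counts in WT and 1561, 952 and 2098 in knockout libraries. *Id4* had 381, 369 and 357 counts in WT and 286, 163 and 330 in knockout libraries. The same order of the 3 knockout libraries held for all 4 Id genes. Their log2 fold changes were -0.71 ± 0.37 for *Id1*, 0.43 ± 0.34 for *Id2*, -0.09 ± 0.29 for *Id3* and -0.58 ± 0.24 for *Id4*, none of them called.

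Without knockout replicate 2 these became -0.38 for *Id1*, 0.71 for *Id2*, 0.16 for *Id3* and -0.33 for *Id4*, so that *Id2* was called and *Id3* turned sign. The summed level of the 4 genes per length was 121 to 126 CPM per kb in WT and 111, 61.5 and 148 in knockout replicates 1, 2 and 3. The shares within that sum were steadier than the sum itself. *Id1* made up 32.2, 32.0 and 29.8% in WT and 23.2, 18.6 and 23.3% in the knockout, and *Id2* 8.80, 8.02 and 7.99% in WT and 12.7, 12.7 and 13.3% in the knockout, and for neither did the genotypes overlap. *Id3* was the largest part in every library, at 54.5% to 57.8% in WT and 60.3% to 65.0% in the knockout.

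Replicate 2 was the lowest of the knockout libraries for 4 of 4 Id genes, 6 of 7 inhibitors and corepressors and 4 of 6 Smads, together 14 of 17. The 3 roles summed here are those with the highest shares. Replicate 2 was the lowest for 3 of 9 TGF-beta ligand and latency genes, 0 of 5 BMP and GDF ligands and 1 of 2 activins. The same held for 2 of 8 antagonists and 3 of 10 receptors. It was the highest for 4 of the 5 BMP and GDF ligands and 6 of the 10 receptors. It was the lowest for 23 of the 51 pathway genes, or 45.1%, and for 40.8% of all tested genes. The median SD of log2 CPM over the 51 genes was 0.04 in WT and 0.18 in knockout libraries, beside 0.06 and 0.11 over all tested genes. The summed fibroblast markers were highest in the same library, at 32880 CPM against 27905 and 26115 in knockout replicates 1 and 3. That library was the highest of the knockout libraries for 11 of the 14 fibroblast markers, *Col1a1* and *Fn1* among them, and the lowest for *Vim*, *Prrx1* and *S100a4*. The part of this in the Id, *Smad6* and *Inhba* values was not tested.

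**Figure D4:**
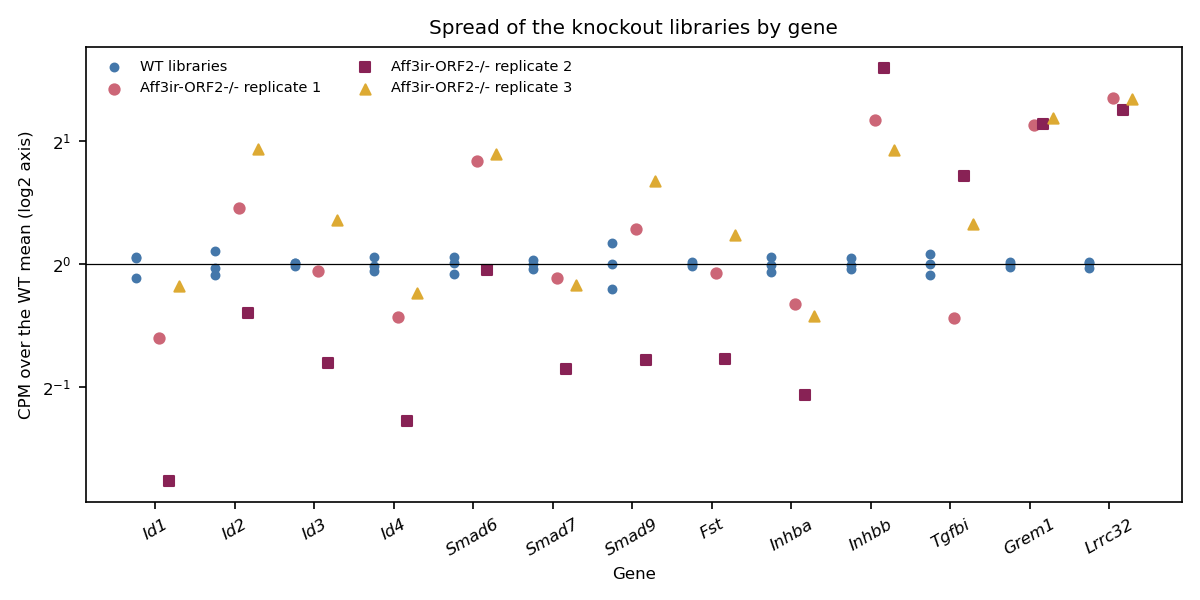
CPM of 13 pathway genes in each library over the WT mean of the gene, on a log2 axis, with a symbol for each knockout replicate. For the 4 Id genes, *Smad6*, *Smad7*, *Smad9*, *Fst* and *Inhba*, knockout replicate 2 lies below the other knockout libraries, for *Inhbb* and *Tgfbi* it lies above them, and for *Grem1* and *Lrrc32* the 3 lie close together.

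The 250 bases before the RefSeq transcription start (GRCm38.p6) are given for 5 genes picked from those with a window. In *Id2*, *Id3*, *Id4* and *Smad6* knockout replicate 2 was the lowest and replicate 3 the highest knockout library. *Grem1* is given beside them as a called gene whose knockout libraries lay close together. *Fst*, *Smad9* and *Smurf2* had the same order as the Id genes, and the windows of *Smad9* and *Smurf2* are not printed. Any link between sequence and this order was not tested. Capitals mark GTCT, the core of the Smad-binding element, and its reverse complement AGAC, and the GC-rich motif GGCGCC, which reads the same on both strands and is bound by Smads at BMP-responsive genes. The windows, 5′ to 3′ on the gene's strand, are chr12:25096093-25096342 (minus strand) for *Id2*, chr4:136143572-136143821 (plus strand) for *Id3*, chr13:48260866-48261115 (plus strand) for *Id4*, chr9:64022060-64022309 (minus strand) for *Smad6* and chr2:113758649-113758898 (minus strand) for *Grem1*.
Id2: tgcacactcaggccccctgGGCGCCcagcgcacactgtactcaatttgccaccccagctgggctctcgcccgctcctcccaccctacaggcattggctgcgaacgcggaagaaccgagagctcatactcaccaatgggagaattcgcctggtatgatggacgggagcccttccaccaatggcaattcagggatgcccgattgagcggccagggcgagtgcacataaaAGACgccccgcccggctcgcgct
Id3: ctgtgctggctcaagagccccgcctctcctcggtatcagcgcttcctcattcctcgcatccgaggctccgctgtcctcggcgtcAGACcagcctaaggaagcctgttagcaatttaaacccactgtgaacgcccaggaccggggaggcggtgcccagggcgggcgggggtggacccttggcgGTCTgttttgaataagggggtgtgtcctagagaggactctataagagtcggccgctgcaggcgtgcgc
Id4: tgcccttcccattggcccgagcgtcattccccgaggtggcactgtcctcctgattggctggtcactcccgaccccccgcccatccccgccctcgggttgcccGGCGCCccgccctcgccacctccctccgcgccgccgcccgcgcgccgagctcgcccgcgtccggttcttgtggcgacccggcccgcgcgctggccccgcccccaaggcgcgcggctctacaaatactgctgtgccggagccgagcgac
Smad6: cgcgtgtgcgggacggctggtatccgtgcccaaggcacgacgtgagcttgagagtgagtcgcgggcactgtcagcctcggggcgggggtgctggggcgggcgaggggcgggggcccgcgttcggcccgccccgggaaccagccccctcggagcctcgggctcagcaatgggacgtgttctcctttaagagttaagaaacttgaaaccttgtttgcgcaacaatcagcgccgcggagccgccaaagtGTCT
Grem1: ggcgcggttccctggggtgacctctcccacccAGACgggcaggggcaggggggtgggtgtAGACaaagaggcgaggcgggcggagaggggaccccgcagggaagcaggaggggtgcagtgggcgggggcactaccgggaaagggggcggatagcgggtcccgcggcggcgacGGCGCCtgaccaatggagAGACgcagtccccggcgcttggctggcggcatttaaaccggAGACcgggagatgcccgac

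Of the 51 genes, 37 had a RefSeq window, and *Id1* and *Lrrc32* were among those without one. GGCGCC was found in 14 of the 37, or 37.8%, beside 19.8% of the 10425 tested genes with a window and 10.8% of all 27025 genes with a window. *Id2*, *Id4* and *Grem1* held it, and the windows of *Id3* and *Smad6* did not. GTCT or AGAC was found in 32 of 37, or 86.5%, beside 83.7% of tested genes. The palindrome GTCTAGAC, which contains GTCT, and the spaced element GGCGCCNNNNNGTCT, which joins the motifs, were found in none of the 37, beside 0.249% and 0.125% of tested genes. Motifs were read on both strands, and a match is a run of letters and was not tested as a binding site.

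**Figure D5:**
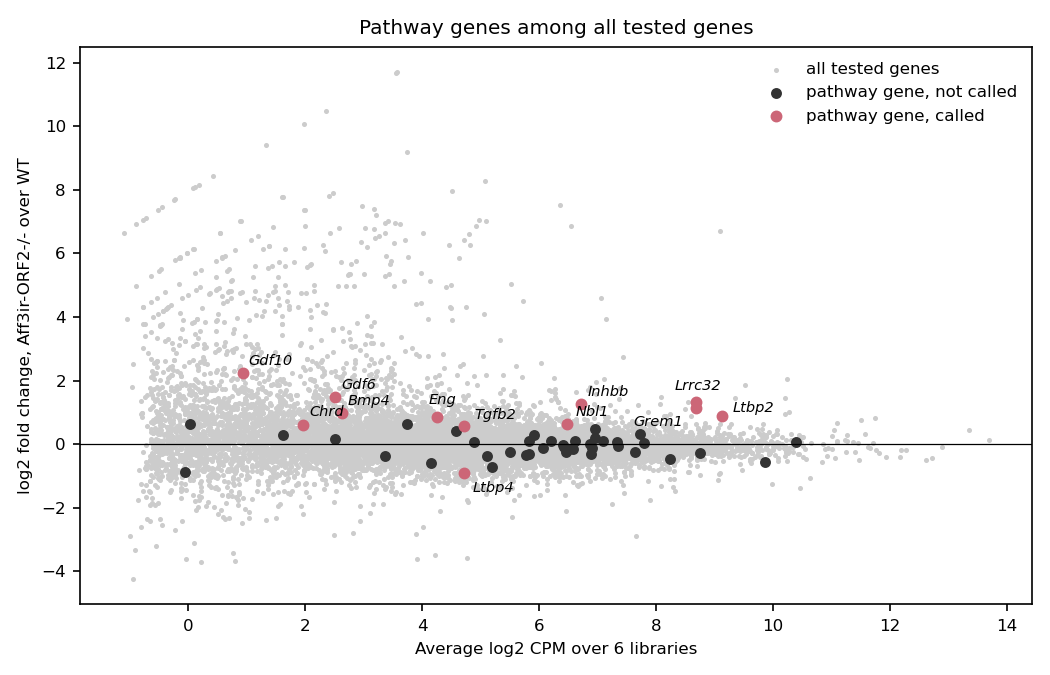
Fitted log2 fold change against average log2 CPM for all 13075 tested genes in grey and the 51 pathway genes in black or, where called, red. The pathway genes run from -0.92 for *Ltbp4* to 2.24 for *Gdf10*, within a cloud of other genes that reaches larger folds at low levels.

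The other genes of the pathway and its usual targets were taken from a list of 99 genes in the table, of which 75 were tested. Of these, 13 rose, beside 14.2% of all tested genes, and 7 fell, beside 7.27%, and the 20 called in all were 26.7% of the 75, beside 21.4% of all tested genes. By group the tested genes called were 4 of 6 ligands, 0 of 5 receptors and coreceptors, 2 of 9 antagonists, 2 of 15 genes of activation and matrix storage, 2 of 16 intracellular regulators, 8 of 19 TGF-beta targets of fibroblasts and 2 of 5 BMP targets. The 2 BMP targets called were *Msx2* and *Hey1*, both higher, with log2 fold changes of 1.00 ± 0.24 and 1.55 ± 0.39. *Hey1* had only 4, 4 and 6 counts in WT libraries. The uncalled BMP targets were *Atoh8* at 1.18 ± 0.44, *Msx1* at 0.17 ± 0.26 and *Runx2* at -0.51 ± 0.07. The median log2 fold change of the 75 was 0.05, beside 0.01 for all tested genes.

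Of the 19 tested fibroblast targets of TGF-beta, 4 were called higher and 4 lower, beside 14.2% and 7.27% of all tested genes. *Acta2*, smooth muscle actin, the classical myofibroblast marker, had 42892, 42490 and 42776 counts in WT and 82800, 81041 and 77859 in knockout libraries, a log2 fold change of 0.84 ± 0.05 (adjusted p = 1.78e-06, edgeR). *Tagln*, transgelin, rose by 0.66 ± 0.06 on the log2 scale (adjusted p = 2.54e-05, edgeR), and *Cdkn1a*, the cell cycle inhibitor p21, by 0.65 ± 0.04 (adjusted p = 2.03e-06, edgeR). *Acta2* and *Tagln* are also members of the smooth muscle list, of which 6 of 7 genes rose.

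Other targets of the same list fell. *Junb*, an AP-1 factor induced early by TGF-beta, fell by 0.70 ± 0.07 on the log2 scale (adjusted p = 3.68e-05, edgeR). *Cthrc1*, a secreted protein of activated fibroblasts, fell by 0.65 ± 0.08 (adjusted p = 0.00011, edgeR), and *Klf10*, an early response factor, by 0.64 ± 0.15 (adjusted p = 0.0104, edgeR). *Postn*, periostin, had 37046, 37175 and 37957 counts in WT and 17310, 27129 and 13076 in knockout libraries, a log2 fold change of -1.04 ± 0.26 (adjusted p = 0.0194, edgeR). The calls of *Cthrc1* and *Postn* were lost without knockout replicate 1, at -0.58 and -0.99, and that of *Klf10* without replicate 2, at -0.47.

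Neither *Ccn2* nor *Pmepa1*, both induced by TGF-beta, was called. *Ccn2*, connective tissue growth factor, had 37308, 38641 and 37613 counts in WT and 30122, 21682 and 30125 in knockout libraries, a log2 fold change of -0.55 ± 0.13 (adjusted p = 0.0106, edgeR), and *Pmepa1*, a feedback inhibitor of Smad signalling, -0.44 ± 0.07 (adjusted p = 0.000948, edgeR). Both were lower in all 3 knockout libraries by less than 1.5-fold, though *Ccn2* passed it without knockout replicate 1 (-0.64) or 3 (-0.63).

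Among the ligands, *Gdf15*, a stress-induced member of the superfamily, had 22, 21 and 24 counts in WT and 54, 51 and 68 in knockout libraries, a log2 fold change of 1.29 ± 0.21 (adjusted p = 0.000584, edgeR). *Bmp6* had 44, 38 and 40 counts in WT and 29, 12 and 25 in knockout libraries and fell by 0.96 ± 0.29 (adjusted p = 0.0191, edgeR), a call lost without WT replicate 1 (-0.89) or 3 (-0.98). *Nrros*, which anchors latent TGF-beta on myeloid cells as *Lrrc32* does elsewhere, had 84, 109 and 106 counts in WT and 184, 205 and 231 in knockout libraries, a log2 fold change of 0.97 ± 0.13 (adjusted p = 0.000194, edgeR). The macrophage markers moved the same way, and their part in the *Nrros* value was not tested.

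*Thbs1*, thrombospondin 1, an activator of latent TGF-beta and among the most abundant transcripts of these cells, differed by 0.14 ± 0.05 on the log2 scale (adjusted p = 0.0322, edgeR), under the fold limit. Of the type I receptors outside the 51, *Acvrl1*, also called ALK1, had 0.03 ± 0.07 (adjusted p = 0.785, edgeR), and *Bmpr1b* had 700, 720 and 746 counts in WT and 517, 512 and 504 in knockout libraries, -0.58 ± 0.05 (adjusted p = 2.31e-05, edgeR), just under the fold limit. Of the intracellular regulators, *Hipk2*, a kinase that interacts with Smad corepressors, rose by 0.64 ± 0.07 (adjusted p = 5.72e-05, edgeR) and *Nedd4l*, a ubiquitin ligase of activated *Smad2* and *Smad3*, fell by 0.66 ± 0.06 on the log2 scale (adjusted p = 1.73e-05, edgeR).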

How the data were processed

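WT and *Aff3ir-ORF2-/-* MEF RNA was sequenced with paired ends on a DNBSEQ-G400 instrument, filtered with SOAPnuke and processed by the sequencing company. The labels name Trizol and the methods a kit for RNA extraction. The authors deposited 1 table of raw estimated counts, with genes in rows and the 6 libraries in columns. The submitters' processing notes name mm8 as the build, and the aligner, counting tool and use of strand are not given in the sources used here. The pathway genes and all gene lists were chosen with earlier results of these data known.

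Of the gene values in each library, zeros included, 10.6% to 11.3% were fractional and were rounded to whole counts. Genes were filtered with filterByExpr (minimum count 10, minimum total 15), which kept 13075 of 17092, scaled by TMM (factors 0.989 to 1.02) and compared by edgeR's quasi-likelihood test (edgeR 4.0.16, R 4.3.3) with robust estimation of the spread, no covariates and all 6 libraries. Adjusted p-values are Benjamini-Hochberg values over all 13075 genes, and SE is that of the log2 fold change. The fit was tested on simulated counts with known changes. These were well past the fold limit and in genes above a minimum level, so calls near the limit or on few reads were not covered. Levels per length are CPM per kb of the longest GENCODE M21 transcript, found for all 51 genes. Promoter windows are those of RefSeq, GRCm38.p6, and no coordinates of the files' build are given. Of the 51 genes, 22 overlap another RefSeq gene, among them the called *Tgfb2*, *Ltbp2*, *Ltbp4*, *Bmp4*, *Chrd* and *Eng*. Since the use of strand is not known, the reads of these 22 genes may be shared.

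Every called pathway gene is given with its counts, as are the 2 genes of each role with the most counts and the canonical members. Of the other pathway and target genes, up to 6 called genes in each direction by adjusted p are named, with canonical ones, and some genes that follow from this rule are not reported here. Alternatives were other scalings, filters and tools (DESeq2 1.42.0, limma 3.58.1), a replicate block, other fold limits, a fit without robust estimation, which was chosen after seeing the data, and leaving out each library. Figures were drawn with matplotlib 3.10.9 in Python 3.11.15.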

Additional observations from a re-analysis of the deposited data

How the results depend on the processing

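The counts of pathway genes called higher (11) and lower (1) were 9 to 11 and 1 to 3 when libraries were left out in turn, with 2 lower without WT replicate 3 or knockout replicate 1 and 3 without knockout replicate 3. With voom 4 were lower. With a 2-fold limit 5 were higher and 0 lower, and in a test against a 1.5-fold change 7 were higher. Over all genes, 1096 were higher and 317 lower at 2-fold, and 1074 and 410 in the test against 1.5-fold. Of the further pathway and target genes, 3 and 2 were called at 2-fold and 4 and 0 against 1.5-fold. The median log2 fold change of the 51 genes, 0.0768, was 0.116 with upper quartile scaling, 0.106 with total counts only and 0.0356 to 0.0816 when libraries were left out, lowest without knockout replicate 2. Upper quartile scaling shifted the median of all genes by 0.04. The cause of these differences was not tested, other than that stricter limits call fewer genes.

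Of the 12 called genes, 9 kept the call in every alternative in which they were tested, leaving aside the 2 stricter fold rules. In the test against a 1.5-fold change 7 of the 51 were higher and 1 lower, so at least 1 of the 9 lost its call there. *Tgfb2*, *Chrd* and *Nbl1* lost the call in some of the other alternatives, with no change of sign. *Tgfb2* lost it with DESeq2 size factors, without a filter, with DESeq2's Wald test and without WT replicate 2, knockout replicate 2 or 3. Of the 39 not called, 6 were called in some: *Inhba* with voom and without knockout replicate 1, *Nog* without WT replicate 3 or knockout replicate 3, *Smad6* with upper quartile scaling, DESeq2's Wald test, without robust estimation and without knockout replicate 2, *Id1* with voom, *Id2* without knockout replicate 2, and *Id4* with voom and without knockout replicate 3. The log2 fold change of 8 pathway genes, none of them called, changed sign in at least 1 alternative: *Tgfbi*, *Fst*, *Fstl1* (-0.04) and *Id3* without knockout replicate 2, *Smad9* without knockout replicate 3 (-0.15), *Tgfbr2* without knockout replicate 1 (0.04) or 3 (0.01), *Smad5* with upper quartile or total count scaling or without WT replicate 2, and *Tgfbr3*, at 0.00, in 7. Among the further genes the log2 fold change of *Acvrl1* ran from -0.0278 to 0.0811 when libraries were left out, below 0 without WT replicate 3 (-0.00857) or knockout replicate 3.

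With a replicate block 11 pathway genes were higher and 1 lower, and 1854 and 954 of all genes, so it moved no count by over 1.5 times. Deviations of same-numbered libraries correlated at 0.0533, 0.0449 and 0.0225, and each WT library correlated best with its own number. These correlations were small and the labels name no pairing, so whether the libraries are paired cannot be told from them. With fewer than 20 counts in several libraries, *Bmp2*, *Nog* and *Gdf10* are limited by depth, and they could not be tested where at least 10 counts in every library were required.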

Other observations

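*Bmp8b*, a BMP ligand left out of the test for its low counts, had 3, 0 and 2 counts in WT and 10, 11 and 27 in knockout libraries. *Gdf11*, a relative of myostatin, had 562, 538 and 538 counts in WT and 780, 791 and 675 in knockout libraries, a log2 fold change of 0.38 ± 0.07 that stayed under 1.5-fold (adjusted p = 0.00147, edgeR). *Emilin1*, a matrix protein that restrains processing of the TGF-beta precursor, had 1276, 1285 and 1224 counts in WT and 2027, 2795 and 2099 in knockout libraries and rose by 0.79 ± 0.11 (adjusted p = 0.001, edgeR). These genes were chosen after their values were seen.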
